A study of Mus musculus with 13 samples.

Results

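Glucose uptake and glycolysis were followed through 10 named genes, the glucose transporter Slc2a1, the hexokinases Hk1 and Hk2, the phosphofructokinases Pfkl and Pfkp, the aldolase Aldoa, the phosphoglycerate kinase Pgk1, the enolase Eno1 and the lactate dehydrogenase subunits Ldha and Ldhb, in mouse neuroblastomas and normal adrenal gland. The members were chosen by name, and every probe set annotated to a member was read. Of the 10 genes 9 had a probe set annotated to 1 gene symbol alone, with 25 such probe sets among 34945 on the array. Eno1 had none and was not analysed here, and 1 further probe set, which Hk1 shares with other genes, was left out. RNA of 13 samples was measured on 1 Affymetrix array each, and all mice had the C57BL/6 background. The groups were tumours carrying MYCN together with mutated ALK (double transgenic, n = 3 arrays), tumours carrying mutated ALK alone (mutALK, n = 3), tumours carrying MYCN alone (n = 4) and adrenal tissue labelled normal (n = 3). Both transgenes act in the neural crest, the promoter and the ALK mutation are not given in the labels, and the mice were killed once a tumour could be felt. MYCN is a transcription factor of the MYC family and ALK a receptor tyrosine kinase, and neuroblastoma is a paediatric tumour that arises from sympathetic precursors. The titles of mutALK 2 and 3 share a number, as do those of MYCN 2 and 3, and what it marks is not given. The labels give no animal for an array, so every p-value reflects only how far these samples scatter, which may in part be technical.

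Glycolysis turns glucose into pyruvate in the cytosol. A transporter carries glucose across the plasma membrane, hexokinase traps it as glucose 6-phosphate, phosphofructokinase commits it to the pathway, aldolase splits the sugar, and phosphoglycerate kinase makes the first ATP. Lactate dehydrogenase, assembled from Ldha and Ldhb subunits, interconverts pyruvate and lactate. Several steps are made by more than 1 gene copy, and tissues differ in which copy they use: HK1 is the common form of brain and HK2 that of muscle and fat, PFKL is the liver form and PFKP the platelet form, which brain also makes, and LDHB is plentiful in heart. MYC proteins bind the E-box CACGTG, and LDHA is a known MYC target in human and rodent cells, while hypoxia-inducible factors bind the core ACGTG.

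The upstream sequences of the lactate dehydrogenase genes are shown because Ldha was the 1 member with an E-box and Ldhb codes for its partner subunit. The windows, credited to RefSeq on assembly GRCm38.p6, hold the 250 bases before the annotated start, 5′ to 3′ on the gene's strand, with each E-box in capitals. The Ldha stretch lies at chr7:46845554-46845803 on the plus strand, and the Ldhb stretch at chr6:142507958-142508207 on the minus strand. The Ldha stretch lies inside the gene span given below, so it precedes an annotated start within that span and not the first base of the gene.
Ldha: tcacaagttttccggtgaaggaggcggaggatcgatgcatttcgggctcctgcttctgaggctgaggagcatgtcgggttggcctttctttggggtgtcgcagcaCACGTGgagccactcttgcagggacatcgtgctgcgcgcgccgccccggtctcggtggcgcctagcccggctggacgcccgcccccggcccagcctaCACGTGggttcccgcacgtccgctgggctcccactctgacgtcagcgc
Ldhb: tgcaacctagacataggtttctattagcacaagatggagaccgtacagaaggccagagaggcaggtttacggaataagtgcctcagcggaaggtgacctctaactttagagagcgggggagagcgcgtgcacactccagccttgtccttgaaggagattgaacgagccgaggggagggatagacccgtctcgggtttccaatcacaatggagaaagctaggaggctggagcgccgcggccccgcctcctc
Both strands were searched in windows that also take in the 50 bases after the start. CACGTG stood in 1 of the 10 members, Ldha, where the 2 copies begin 145 and 48 bases before the start, in 8.09% of all 27025 genes and in 7.15% of their 32851 windows, so 1 of 10 is near the share of all genes. A second annotated Ldha start and the Ldhb window held none. ACGTG, which lies within CACGTG, stood on either strand in 6 of the 10 members, Slc2a1, Hk1, Hk2, Aldoa, Pgk1 and Ldha, and in 19.6% of all windows or 21.8% of all genes. The 10 members had 16 windows, more per gene than all genes had, so these shares are not on an equal footing and were not tested. The Hk1 matches lie 7 and 16 bases after the start, and overlapping Aldoa windows hold the same copy. A match is a description of these letters and no evidence that a factor binds there.

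Before the members are described, 1 adrenal array has to be named, because it lay apart from the other 2 in most of them. Adrenal 2 was above both other adrenal arrays in 8 of 9 members, against 41.7% of all genes, and at least 1 log2 unit above both in 6 of 9, against 6.93% of all genes. Its mean over 8 liver markers was 11.43, against 5.11 and 5.25 in adrenal 1 and 3, and its mean over 7 neuron markers was 10.23, against 6.52 and 5.44. Its mean over 8 adrenal cortex markers was 11.34, against 12.23 and 12.68, so the cortex markers were present in all 3 adrenal arrays, while all tumour arrays lay between 4.64 and 6.54. Tumour arrays had neuron marker means of 11.68 to 12.05 (double transgenic), 12.06 to 12.47 (mutALK) and 10.78 to 11.13 (MYCN). Liver markers were also high, with means above 8, in double transgenic 1, mutALK 1, mutALK 3 and MYCN 2, so that 5 of 13 arrays carried them. The mouse Mycn probe set averaged 10.19 in double transgenic, 12.03 in mutALK and 6.35 in MYCN tumours and 7.69 in adrenal gland, and whether it reads the transgene is not given, so it does not check the labels. Members are given with and without adrenal 2 where it changes a call, and gene lists by their counts.

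With all 13 arrays, Hk2 and Aldoa were lower than in adrenal gland in all 3 tumour types, while Hk1 was higher in mutALK tumours, Pfkp higher and Pfkl lower in double transgenic tumours, and Ldhb lower in MYCN tumours. All values are log2 expression, differences are the first group minus the second ± SE, and a gene was called at an adjusted p under 0.05 (limma, Benjamini-Hochberg over 18193 genes). Double transgenic tumours had 1 member higher (Pfkp) and 3 lower (Hk2, Pfkl and Aldoa) of 9, with 48.6% of all genes called, 24.3% higher and 24.2% lower. In mutALK tumours 1 was higher (Hk1) and 2 lower (Hk2 and Aldoa), with 42.2% of all genes called, 21.3% higher and 21% lower. In MYCN tumours none was higher and 3 were lower (Hk2, Aldoa and Ldhb), with 50.2% of all genes called, 25.4% higher and 24.8% lower. The shares of called members are not above those of all genes with all 13 arrays, and the median member difference was -0.56, -0.21 and -0.40 in the 3 tumour types against -0.03, 0.00 and -0.02 over all genes. Without adrenal 2 the counts were 3 higher and 2 lower in double transgenic tumours (48.4% of all genes called, 24.3% higher and 24.1% lower), 4 higher and 1 lower in mutALK tumours (42.8%, 21.2% higher and 21.6% lower) and 2 higher and 2 lower in MYCN tumours (49.6%, 25.3% higher and 24.3% lower). That is 55.6%, 55.6% and 44.4% of the 9 members, and their medians were then -0.54, 0.21 and -0.15, so that of mutALK tumours changed sign. The 3 comparisons share the adrenal arrays. Bulk RNA cannot tell fewer cells of a type from less RNA per cell.

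Between tumour types few members passed the test. In mutALK against MYCN tumours 1 of 9 was called (Pgk1, higher), with 30.8% of all genes called, 13.6% higher and 17.2% lower. In double transgenic against MYCN tumours 1 was called (Pfkp, higher), with 12.8% of all genes called, 6.16% higher and 6.66% lower. In double transgenic against mutALK tumours limma called 0, with 14.4% of all genes called (8.39% higher and 6.04% lower), and 0 members had an unadjusted p under 0.05. Without adrenal 2, which enters these comparisons only through the shared estimate of spread, 4 members were higher in mutALK than MYCN tumours (35.9% of all genes called, 16.7% higher and 19.2% lower), 3 were higher and 1 lower in double transgenic than MYCN tumours (18.5%, 9.28% higher and 9.24% lower) and 1 was lower in double transgenic than mutALK tumours (20.1%, 11.4% higher and 8.74% lower).

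**Figure D1:**
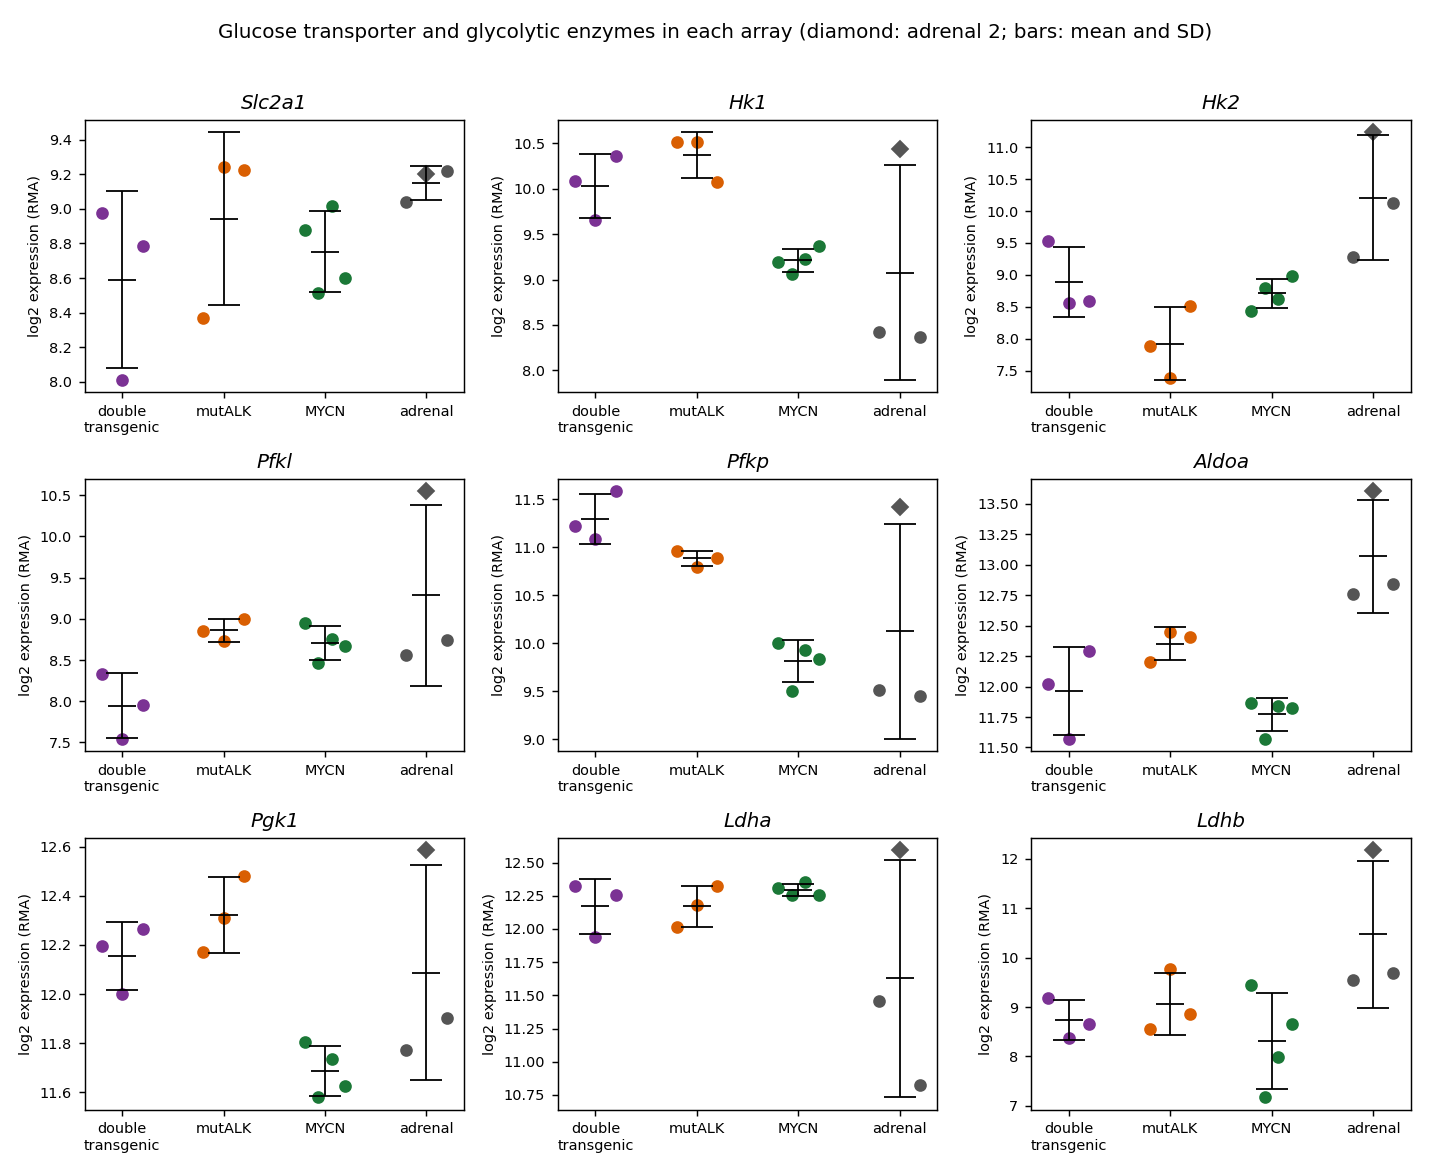
Log2 expression (y axis, RMA) of the 9 measured members in each of the 13 arrays, by group on the x axis, with bars for mean and SD. The adrenal 2 array, drawn as a diamond, is the highest adrenal value in all panels but Slc2a1, where it is at 9.20 beside 9.04 and 9.22.

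Slc2a1, the widespread basal glucose transporter GLUT1, was called in no comparison. Its brightest probe set (1434773_a_at) read 8.98, 8.01 and 8.79 in double transgenic tumours, 8.37, 9.24 and 9.22 in mutALK tumours, 8.88, 8.52, 9.01 and 8.60 in MYCN tumours and 9.04, 9.20 and 9.22 in adrenal gland. All double transgenic and all MYCN arrays lay below all adrenal arrays, while mutALK arrays overlapped them. The differences against adrenal were -0.56 ± 0.28, -0.21 ± 0.28 and -0.40 ± 0.26 in double transgenic, mutALK and MYCN tumours (limma, adjusted p = 0.119, 0.608 and 0.234), and none was called with or without adrenal 2. The other 2 probe sets of Slc2a1 differed from adrenal by -0.13 to -0.47, with none called, where 46.2%, 38.5% and 47.4% of all probe sets were called in double transgenic, mutALK and MYCN tumours. In this gene, located on GRCm38.p6 at chr4:119108745-119137330, adrenal 2 did not stand apart.

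The hexokinases moved apart. Hk2, the form of insulin-responsive tissues (chr6:82725025-82774454), was lower in all 3 tumour types, and Hk1, the form of brain (chr10:62268855-62379920), was higher in mutALK tumours. Hk2 read 9.53, 8.56 and 8.60 in double transgenic tumours, 7.89, 7.38 and 8.51 in mutALK tumours, 8.44, 8.80, 8.63 and 8.98 in MYCN tumours and 9.27, 11.23 and 10.12 in adrenal gland. Only double transgenic 1 reached into the adrenal range. Hk2 fell by 1.31 ± 0.45 in double transgenic tumours (2.48-fold lower, limma adjusted p = 0.0303), by 2.28 ± 0.45 in mutALK tumours (4.86-fold, 0.00161) and by 1.50 ± 0.42 in MYCN tumours (2.83-fold, 0.0106). Without adrenal 2 the differences were -0.80 ± 0.38, not called, -1.77 ± 0.38 and -0.99 ± 0.36, both called. The call in double transgenic tumours was also lost without adrenal 3 (-1.36), double transgenic 2 (-1.15) or double transgenic 3 (-1.16). The mean over 5 fat cell markers was 4.35 to 5.35 in double transgenic, 5.60 to 7.68 in mutALK and 5.54 to 8.51 in MYCN tumours and 9.92 to 11.89 in adrenal gland, and its part in the Hk2 difference was not tested.

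Hk1 read 10.08, 9.66 and 10.36 in double transgenic tumours, 10.52, 10.51 and 10.07 in mutALK tumours, 9.20, 9.06, 9.23 and 9.37 in MYCN tumours and 8.43, 10.44 and 8.36 in adrenal gland. Every tumour array lay above adrenal 1 and 3, and adrenal 2 lay among the mutALK arrays. Hk1 rose by 1.29 ± 0.44 in mutALK tumours (2.45-fold, limma adjusted p = 0.0344), and differed by 0.96 ± 0.44 in double transgenic (0.097) and 0.14 ± 0.41 in MYCN tumours (0.821). Without adrenal 2 it was called higher in all 3, by 1.64 ± 0.20 in double transgenic, 1.97 ± 0.20 in mutALK and 0.82 ± 0.19 in MYCN tumours. The call in mutALK tumours was lost without mutALK 1 (1.22), mutALK 2 (1.22), adrenal 1 (0.97) or adrenal 3 (0.93). Between tumours all mutALK arrays lay above all MYCN arrays, by 1.15 ± 0.41 (limma adjusted p = 0.0548), a difference called without any 1 of the adrenal arrays (1.15 each time). The second Hk1 probe set (1420901_a_at), tested among all probe sets, exceeded MYCN tumours in mutALK tumours by 1.09 ± 0.30 and adrenal gland by 1.26 ± 0.32 (limma adjusted p = 0.0167 and 0.00765). All double transgenic arrays also lay above all MYCN arrays for Hk1, by 0.82 ± 0.41 (0.234), a difference called without adrenal 2 (0.82). The neuron marker means given above were higher in double transgenic and mutALK than in MYCN tumours and higher in adrenal 2 than in adrenal 1 and 3, as was Hk1, but adrenal 2 was below the MYCN arrays in neuron markers and above them in Hk1. The part of these markers in the Hk1 differences was not tested. With arrays of a shared title number averaged, Hk1 in mutALK tumours against adrenal was 1.33 ± 0.54 and not called.

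Phosphofructokinase catalyses the committed step, and its copies Pfkp (chr13:6579874-6649060) and Pfkl (chr10:77986947-78009807) went in opposite directions in double transgenic tumours. Pfkp read 11.22, 11.08 and 11.58 in double transgenic tumours, 10.96, 10.80 and 10.89 in mutALK tumours, 10.00, 9.50, 9.92 and 9.83 in MYCN tumours and 9.51, 11.42 and 9.45 in adrenal gland. The 3 tumour types did not overlap, in the order double transgenic, mutALK, MYCN from high to low, and adrenal 2 fell within the double transgenic range. Pfkp rose by 1.17 ± 0.41 in double transgenic tumours against adrenal (2.25-fold, limma adjusted p = 0.0351) and differed by 0.76 ± 0.41 in mutALK (0.175) and -0.31 ± 0.39 in MYCN tumours (0.555). Double transgenic tumours exceeded MYCN tumours in Pfkp by 1.48 ± 0.39 (2.79-fold, 0.0288), while mutALK minus MYCN was 1.07 ± 0.39 (0.0574) and double transgenic minus mutALK 0.41 ± 0.41 (0.576). Leaving out adrenal 2 gave 1.82 ± 0.17 in double transgenic, 1.40 ± 0.17 in mutALK and 0.34 ± 0.16 in MYCN tumours against adrenal, the first 2 called. Single arrays decided several of these calls. The rise of Pfkp against adrenal in double transgenic tumours was not called without adrenal 1 (0.86), adrenal 3 (0.83) or double transgenic 1 (1.21), 2 (1.27) or 3 (1.02). The difference between double transgenic and MYCN tumours was not called without MYCN 2 (1.37), 3 (1.51) or 4 (1.49) or double transgenic 1 (1.52), 2 (1.59) or 3 (1.33), and that between mutALK and MYCN tumours was called without any 1 adrenal array (1.07 each time). With arrays of a shared title number averaged, Pfkp in double transgenic tumours was not called against adrenal (1.17 ± 0.45) or against MYCN tumours (1.44 ± 0.45).

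The 3 Pfkp probe sets did not tell the same story between double transgenic and mutALK tumours. Probe set 1437759_at read 6.59, 7.55 and 6.96 in double transgenic tumours, 6.29, 5.20 and 6.14 in mutALK tumours, 5.64, 4.75, 5.53 and 4.85 in MYCN tumours and 5.07, 4.86 and 4.45 in adrenal gland. It was higher in double transgenic than in mutALK tumours by 1.16 ± 0.35 (limma over all probe sets, of which 14.1% were called, adjusted p = 0.0472), and in it adrenal 2 lay between the other adrenal arrays. Probe set 1430634_a_at read 6.48, 6.72 and 6.33 in double transgenic tumours and 7.16, 7.37 and 7.14 in mutALK tumours, and was lower in double transgenic tumours by 0.71 ± 0.16 (0.0144). Against adrenal gland all 3 Pfkp probe sets were higher in double transgenic tumours, by 0.33 to 2.24, with 2 of 3 called, as were 46.2% of all probe sets. Which transcripts of Pfkp each probe set reads was not analysed here.

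Pfkl read 8.34, 7.55 and 7.95 in double transgenic tumours, 8.85, 8.73 and 9.0 in mutALK tumours, 8.95, 8.46, 8.76 and 8.66 in MYCN tumours and 8.56, 10.55 and 8.74 in adrenal gland. The double transgenic arrays lay below all others. Pfkl fell by 1.34 ± 0.42 in double transgenic tumours against adrenal (2.53-fold, limma adjusted p = 0.0198), and by 0.71 ± 0.21 without adrenal 2, still called. The call was lost without double transgenic 2 (-1.14). In mutALK and MYCN tumours the difference was -0.42 ± 0.42 and -0.58 ± 0.39 (0.474 and 0.258). Double transgenic tumours were also below mutALK tumours by 0.91 ± 0.42 (0.175) and below MYCN tumours by 0.76 ± 0.39 (0.245), and both differences were called without adrenal 2, at -0.91 ± 0.19 and -0.76 ± 0.18. The second probe set (1450269_a_at) moved like the brightest, by -0.86 ± 0.30 in double transgenic tumours against adrenal (limma over all probe sets, adjusted p = 0.0347). The third (1453541_at), dim at 5.28 to 5.92 in all arrays, differed by 0.08 ± 0.20. With the mean of all 3 probe sets Pfkl was not called in that comparison (-0.71 ± 0.28).

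Aldoa, the aldolase that most tissues use to split fructose 1,6-bisphosphate (chr7:126795234-126800994), was lower in every tumour type. It read 12.03, 11.57 and 12.29 in double transgenic tumours, 12.20, 12.45 and 12.41 in mutALK tumours, 11.86, 11.57, 11.84 and 11.82 in MYCN tumours and 12.76, 13.60 and 12.84 in adrenal gland. No tumour array reached the lowest adrenal array. Aldoa fell by 1.11 ± 0.23 in double transgenic tumours (2.16-fold, limma adjusted p = 0.00163), by 0.72 ± 0.23 in mutALK tumours (1.64-fold, 0.024) and by 1.30 ± 0.21 in MYCN tumours (2.46-fold, 3e-04). Without adrenal 2 the differences were -0.84 ± 0.19, called, -0.45 ± 0.19, not called, and -1.03 ± 0.18, called. The mutALK call was also lost without mutALK 1 (-0.64) and with arrays of a shared title number averaged (-0.75 ± 0.27). All mutALK arrays lay above all MYCN arrays, by 0.58 ± 0.21 (0.06), a difference called without adrenal 2 or without double transgenic 2 (0.58 both times). The 5 Aldoa probe sets agreed in sign against adrenal in all 3 tumour types, with 14 of 15 differences called. Of all probe sets 46.2%, 38.5% and 47.4% were called in double transgenic, mutALK and MYCN tumours. The 15 differences are not independent, since they read 1 gene against the same adrenal arrays.

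Pgk1 (chrX:106187100-106203699), the enzyme of the first ATP-making step, was lower in MYCN than in mutALK tumours. It read 12.19, 12.00 and 12.27 in double transgenic tumours, 12.17, 12.31 and 12.48 in mutALK tumours, 11.81, 11.58, 11.74 and 11.63 in MYCN tumours and 11.77, 12.59 and 11.90 in adrenal gland. All double transgenic and mutALK arrays lay above all MYCN arrays. Pgk1 in mutALK tumours exceeded MYCN tumours by 0.63 ± 0.17 (1.55-fold, limma adjusted p = 0.0164), a call lost without mutALK 3 (0.55) and with arrays of a shared title number averaged (0.59 ± 0.22), and all 3 probe sets were called in that comparison, as were 28% of all probe sets. Double transgenic tumours were above MYCN tumours by 0.47 ± 0.17 (0.108), called without adrenal 2 (0.47). Against adrenal the differences were 0.07 ± 0.19 in double transgenic, 0.23 ± 0.19 in mutALK and -0.40 ± 0.17 in MYCN tumours (0.809, 0.364 and 0.0784). Without adrenal 2 that of mutALK tumours was 0.48 ± 0.13 and called, and without adrenal 1 that of MYCN tumours was -0.56 and called. Of the 3 probe sets 1417864_at was also called lower in MYCN tumours than in adrenal gland, by -0.49 ± 0.15 (limma over all probe sets, adjusted p = 0.0179).

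The E-boxes shown above lie before an annotated Ldha start inside the gene span. With all 13 arrays Ldha was called against adrenal gland in no tumour type and Ldhb in MYCN tumours. Without adrenal 2 Ldha was called in all 3 and Ldhb in none. Ldha (chr7:46842274-46855627, probe set 1419737_a_at) read 12.33, 11.94 and 12.25 in double transgenic tumours, 12.01, 12.18 and 12.32 in mutALK tumours, 12.31, 12.26, 12.35 and 12.25 in MYCN tumours and 11.46, 12.60 and 10.83 in adrenal gland. The 10 tumour arrays spanned 0.41 log2 units and lay above adrenal 1 and 3 and below adrenal 2. The differences from adrenal were 0.55 ± 0.33, 0.54 ± 0.33 and 0.67 ± 0.31 in double transgenic, mutALK and MYCN tumours (limma, adjusted p = 0.201, 0.221 and 0.096), none called. Without adrenal 2 all were called, at 1.03 ± 0.18, 1.03 ± 0.18 and 1.15 ± 0.17. Between tumour types the differences in Ldha were -0.12 to 0.00 with adjusted p of 0.827 to 0.999.

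Ldhb (chr6:142490249-142507957) was lower in MYCN tumours. It read 9.18, 8.38 and 8.66 in double transgenic tumours, 8.55, 9.78 and 8.87 in mutALK tumours, 9.45, 7.17, 8.0 and 8.66 in MYCN tumours and 9.55, 12.18 and 9.69 in adrenal gland. Only mutALK 2 reached into the adrenal range. Ldhb fell by 2.15 ± 0.66 in MYCN tumours (4.45-fold, limma adjusted p = 0.017) and differed by -1.73 ± 0.71 in double transgenic (0.0632) and -1.41 ± 0.71 in mutALK tumours (0.139). The call in MYCN tumours was lost without adrenal 2 (-1.30) and with arrays of a shared title number averaged (-1.91 ± 0.70), and the difference in double transgenic tumours was called without adrenal 1 (-2.19) or adrenal 3 (-2.12). The 4 Ldhb probe sets agreed in sign against adrenal in all tumour types. When probe sets were tested on their own, 3 of the 4 were called in double transgenic tumours, as were 46.2% of all probe sets. Ldhb was also the member that varied most among MYCN tumours, with an SD of 0.97 against 0.05 for Ldha.

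**Figure D2:**
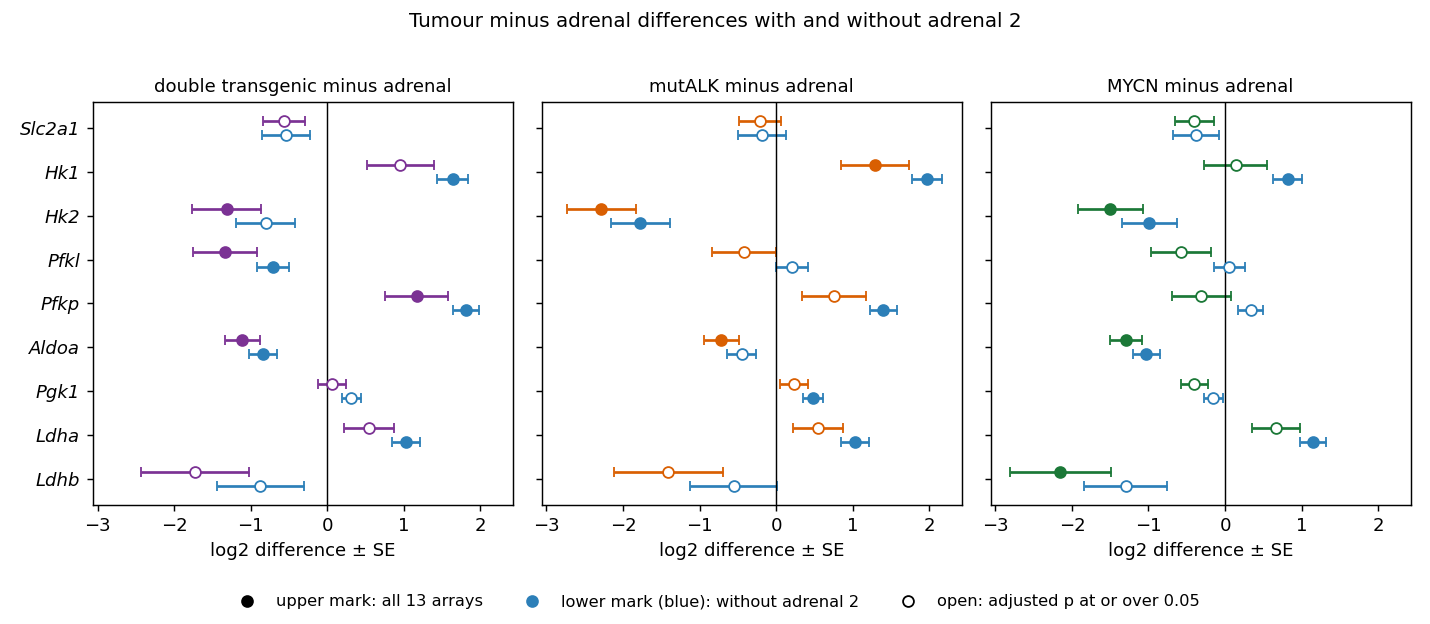
Log2 difference from adrenal gland ± SE (x axis) for each member (y axis) in double transgenic, mutALK and MYCN tumours, with all 13 arrays (upper mark) and without adrenal 2 (blue lower mark), filled where the adjusted p is under 0.05. Hk1 and Ldha are filled in all 3 panels only without adrenal 2, and Hk2, Aldoa and Ldhb lie left of 0 in every panel.

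A difference between 2 probe sets within 1 array does not say which transcript is more abundant. Its change between groups shows that the genes changed unequally, and a shift shared by both genes cancels. The tests of these balances took each array as separate, and averaging arrays of a shared title number was not run for them. Hk2 minus Hk1 was -0.55, -1.10 and -1.77 in double transgenic tumours, -2.63, -3.13 and -1.56 in mutALK tumours, -0.76, -0.27, -0.60 and -0.39 in MYCN tumours and 0.85, 0.79 and 1.76 in adrenal gland. It was below 0 in all 10 tumour arrays and above 0 in all 3 adrenal arrays, adrenal 2 included. The mean over tumours minus that over adrenal arrays was -2.41 (two-sided exact permutation test over 286 splits of the arrays, p = 0.0035, the smallest these splits can give, and 0.00699 after adjustment over 6 tests). Among the tumour types it also differed (F = 10.5, exact permutation test over 4200 arrangements, p = 0.0233, adjusted 0.035), a result that passed in 7 of 13 cases when 1 array was left out, with an F of 6.43 to 22.6.

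Ldha minus Ldhb was 3.14, 3.56 and 3.59 in double transgenic tumours, 3.46, 2.40 and 3.46 in mutALK tumours, 2.86, 5.09, 4.36 and 3.60 in MYCN tumours and 1.91, 0.42 and 1.14 in adrenal gland. Every tumour array exceeded every adrenal array. The tumour mean was higher than the adrenal mean by 2.40 (exact permutation p = 0.0035, adjusted 0.00699), and by 2.03 to 2.77 with any 1 array left out. Among the tumour types no difference was called (F = 1.31, exact permutation p = 0.325, adjusted 0.325).

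By the brightest probe set of each gene, Pfkp minus Pfkl separated all 4 groups. It was 2.88, 3.53 and 3.63 in double transgenic tumours, 2.11, 2.07 and 1.89 in mutALK tumours, 1.06, 1.04, 1.17 and 1.17 in MYCN tumours and 0.94, 0.87 and 0.71 in adrenal gland. The groups did not overlap, the spread within each was 0.41 or less (SD), and adrenal 2 lay between the other adrenal arrays although Pfkp and Pfkl were 1.91 and 1.81 log2 units above the next adrenal array there. Among the tumour types the balance differed (F = 81.6, exact permutation test over 4200 arrangements, p = 0.000476, the smallest these arrangements can give, adjusted 0.00286). It passed in 13 of 13 cases with 1 array left out, with an F of 58.7 to 537. With the mean of all probe sets, which for Pfkp disagree between double transgenic and mutALK tumours, F was 34.0 and passed. The tumour types then stayed apart, but MYCN and adrenal arrays overlapped, and adrenal 2 was the lowest adrenal array. Read by Pfkp probe set 1430634_a_at against the brightest Pfkl probe set, double transgenic and mutALK arrays overlapped. All tumours against adrenal gave a difference of 1.21 (exact permutation p = 0.0524, adjusted 0.0629), which passed without MYCN 1 (1.32). With the mean of all probe sets of each gene that difference was 1.09 and passed (adjusted p = 0.0336, with 0.0336 to 0.175 over its alternatives).

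**Figure D3:**
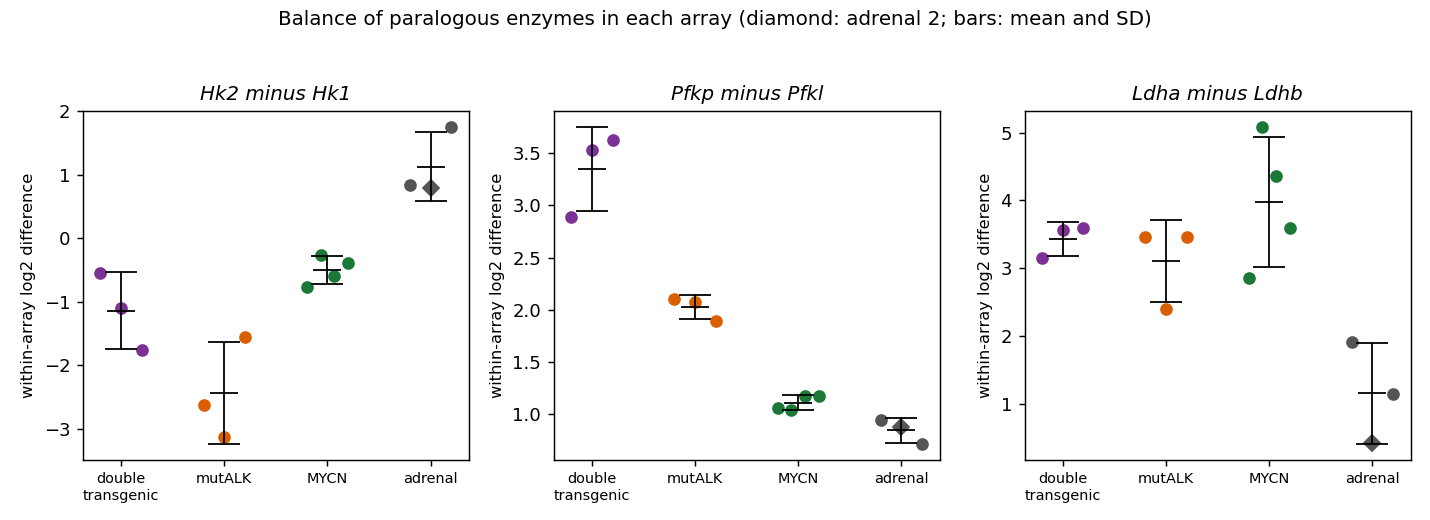
Within-array log2 difference between gene copies (y axis) for Hk2 minus Hk1, Pfkp minus Pfkl and Ldha minus Ldhb in each array by group (x axis), with bars for mean and SD and a diamond for adrenal 2. For the brightest probe sets, Pfkp minus Pfkl steps down from 2.88 to 3.63 in double transgenic tumours to 0.71 to 0.94 in adrenal gland. The groups do not overlap in this panel.

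Of the other enzymes and carriers of glycolysis, 16 of 20 listed genes were measured. In double transgenic tumours 0 were higher and 2 lower than in adrenal gland, in mutALK tumours 2 and 3, and in MYCN tumours 1 and 4, fewer of the 16 than the called shares of all genes given above. Without adrenal 2 they were 2 and 2, 1 and 3, and 3 and 4. Slc2a4, the insulin-responsive transporter GLUT4, fell by 3.12 ± 0.53 in double transgenic, 2.72 ± 0.53 in mutALK and 2.39 ± 0.49 in MYCN tumours (limma, adjusted p = 0.000422, 0.00145 and 0.00154). Without adrenal 2 it fell by 2.30, 1.90 and 1.57, each called. The fat cell marker means given above were higher in every adrenal array than in any tumour array, and their part in the Slc2a4 difference was not tested. Slc2a3, the high-affinity neuronal transporter GLUT3, averaged 10.77 ± 0.41 in double transgenic, 12.11 ± 0.25 in mutALK and 10.19 ± 0.42 in MYCN tumours and 9.26 ± 1.90 in adrenal gland (SD). It rose by 2.84 ± 0.70 in mutALK tumours (0.00621) and 1.51 ± 0.70 in double transgenic and 0.92 ± 0.65 in MYCN tumours were not called. Without adrenal 2 it was called in all 3, at 2.57 in double transgenic, 3.90 in mutALK and 1.98 in MYCN tumours.

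Aldoc, the brain aldolase, averaged 7.65 ± 0.84 in double transgenic, 9.20 ± 0.73 in mutALK and 5.58 ± 0.46 in MYCN tumours and 8.94 ± 0.94 in adrenal gland. It fell by 3.36 ± 0.51 in MYCN tumours against adrenal (10.3-fold, limma adjusted p = 0.00016), and was 12.2-fold higher in mutALK than in MYCN tumours (3.61 ± 0.51, 0.000343). Pfkm, the muscle phosphofructokinase, fell by 2.29 ± 0.46 in mutALK and 1.84 ± 0.43 in MYCN tumours (0.00188 and 0.00373), whereas double transgenic tumours, at 9.11 ± 0.74, lay near the adrenal mean of 9.54 ± 0.63 and above mutALK tumours by 1.86 ± 0.46 (0.0232). That last call was lost without mutALK 2, mutALK 3 or double transgenic 3. Pgam1, the phosphoglycerate mutase, fell by 0.87 ± 0.14, 0.70 ± 0.14 and 1.15 ± 0.13 in double transgenic, mutALK and MYCN tumours (0.000226, 0.00148 and 1.42e-05). Tpi1 (triosephosphate isomerase) and Pkm (pyruvate kinase) passed no test in any comparison, with differences from adrenal of -0.06 to 0.24 and -0.28 to 0.05. Hk3, a hexokinase of blood cells, rose by 0.50 ± 0.15 in MYCN tumours (0.0136), a call lost without adrenal 1 (0.45). Bpgm, the bisphosphoglycerate mutase, was higher in mutALK tumours by 1.21 ± 0.44 (0.0452), a call lost on leaving out any 1 array but mutALK 1 (0.56 to 1.27). Its SD was 1.24 in mutALK tumours and 0.11 in adrenal gland. The mean over 3 red cell markers was 5.87, 9.18 and 7.31 in mutALK 1, 2 and 3 and 5.22 to 5.62 in adrenal gland. The part of these markers in the Bpgm difference was not tested. With all arrays Slc2a2, Hkdc1, Pgam2, Eno2, Eno3, Pklr and Ldhc passed no test in any comparison, but some were called in alternatives. Ldhc in MYCN tumours against adrenal (0.32) was called without mutALK 1 or without adrenal 2 (0.44). It was also called after quantile normalization again (0.42) or with each array centred on its median (0.41). Without MYCN 3, Eno3 was called in mutALK and MYCN tumours against adrenal, and in double transgenic against MYCN and mutALK tumours. Eno2 in double transgenic against mutALK tumours (1.29) was called without adrenal 2.

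**Figure D4:**
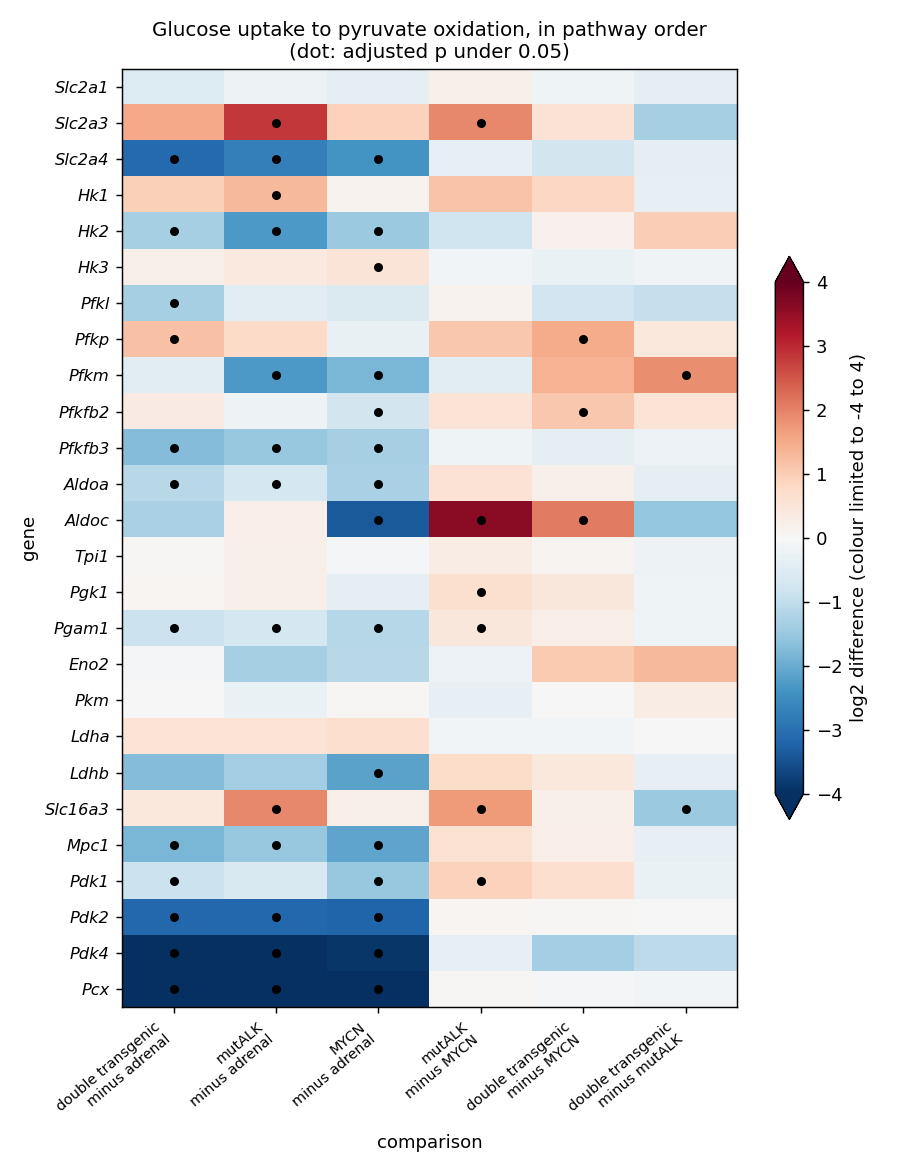
Log2 difference (colour, limited to -4 to 4) of genes from glucose uptake to pyruvate use (y axis, in pathway order) in the 6 comparisons (x axis), with a dot where the adjusted p is under 0.05. The dots lie mainly in the 3 comparisons with adrenal gland, and Pdk2, Pdk4 and Pcx are blue and dotted in all 3 of them.

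Among 4 measured genes that set the pace of glycolysis through fructose 2,6-bisphosphate, 1, 1 and 3 were lower in double transgenic, mutALK and MYCN tumours and none higher. Of all genes 24.2%, 21% and 24.8% were called lower in these comparisons. Without adrenal 2 the counts were the same. Pfkfb3, which makes this activator of phosphofructokinase, changed by -1.72 ± 0.44, -1.50 ± 0.44 and -1.33 ± 0.41 (limma, highest adjusted p = 0.0176). Without adrenal 2 these were -1.06, -0.84 and -0.67, each called, and the mutALK call was lost without mutALK 2 (-1.41). With arrays of a shared title number averaged neither the mutALK (-1.51) nor the MYCN difference (-1.28) was called. Downstream of glycolysis and in the neighbouring pathways, the lists below are given as counts, with no test of a list, beside 24.2%, 21% and 24.8% of all genes called lower and 24.3%, 21.3% and 25.4% called higher in double transgenic, mutALK and MYCN tumours. Of 16 measured genes of lactate and pyruvate transport and oxidation, 0 were higher and 9 lower in double transgenic, 2 and 9 in mutALK, and 0 and 10 in MYCN tumours, with medians of -0.88, -1.0 and -0.97. Without adrenal 2 they were 1 and 8, 2 and 9, and 1 and 10, with medians of -0.53, -0.64 and -0.79. The pyruvate dehydrogenase kinases Pdk4 and Pdk2, which switch off pyruvate oxidation, fell by 5.26 ± 0.85 and 3.15 ± 0.43 in double transgenic tumours, by 4.21 ± 0.85 and 3.13 ± 0.43 in mutALK tumours and by 3.89 ± 0.79 and 3.20 ± 0.40 in MYCN tumours (limma, highest adjusted p = 0.00186). Mpc1, a subunit of the mitochondrial pyruvate carrier, fell by 1.84 ± 0.24 in double transgenic and 2.12 ± 0.22 in MYCN tumours. Slc16a3, the lactate exporter MCT4, rose in mutALK tumours, by 1.92 ± 0.33 against adrenal (0.000661) and by 1.71 ± 0.31 against MYCN tumours (0.00164). It was lower in double transgenic than mutALK tumours by 1.50 ± 0.33 (0.0147). Its signal was dim, at 4.6 in double transgenic, 6.1 in mutALK and 4.39 in MYCN tumours and 4.18 in adrenal gland. Array medians were 5.8 to 5.9.

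The pentose phosphate pathway, which supplies NADPH and has a large part in steroid-making cells, had 5 of 7 measured genes lower in double transgenic, 7 in mutALK and 5 in MYCN tumours, with 1 higher in MYCN tumours (Rpia). H6pd fell by 3.48 ± 0.46, 2.46 ± 0.46 and 3.51 ± 0.43, and Taldo1 (transaldolase) by 1.73 ± 0.18, 1.78 ± 0.18 and 1.98 ± 0.17 in double transgenic, mutALK and MYCN tumours (limma, highest adjusted p = 0.00118). Rpia (ribose 5-phosphate isomerase) rose by 0.67 ± 0.13 in MYCN tumours. Of 7 gluconeogenesis genes 4, 2 and 4 were lower and none higher, and Pcx, the pyruvate carboxylase, changed by -4.79 ± 0.51, -4.68 ± 0.51 and -4.72 ± 0.47 (highest adjusted p = 2.74e-05). Of 15 citric acid cycle genes 12, 11 and 9 were lower and none higher, among them Suclg2, a subunit of succinyl-CoA synthetase, at -2.60 ± 0.29, -3.31 ± 0.29 and -2.64 ± 0.28. Without adrenal 2 the counts higher and lower in double transgenic, mutALK and MYCN tumours were 1 and 5, 0 and 6, and 1 and 4 for the pentose phosphate pathway, 0 and 3, 0 and 2, and 0 and 3 for gluconeogenesis, and 1 and 11, 0 and 10, and 1 and 8 for the citric acid cycle. The adrenal cortex marker means given above, 11.34 to 12.68 in adrenal gland and at most 6.54 in tumours, moved with these lists. So did the fat cell marker means, 9.92 to 11.89 in adrenal gland and at most 8.51 in tumours. The mean over 6 endothelial markers, 5.17 to 5.83 in double transgenic, 6.52 to 7.39 in mutALK and 6.28 to 7.77 in MYCN tumours and 9.13 to 9.19 in adrenal gland, moved likewise. The part of these markers in the results, including those for Pdk4 and Pcx, was not tested.

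The genes whose log2 values followed a member most closely over the 13 arrays are given as a description, since all genes share the arrays and their group structure. Hk1 was followed by Nmnat2 (Pearson r = 0.978), Syngr3 (0.978) and Nrsn1 (0.974), and Pfkp by Fxyd7 (0.981), Atp6v1g2 (0.944) and Rufy2 (0.943). Hk2 was followed by Ndufs1 (0.976), Uqcrc2 (0.953) and Immt (0.95), all 3 coding for mitochondrial proteins. Aldoa was followed by Shpk (0.975), Tiparp (0.967) and Tom1 (0.963), and Pgk1 by Aktip (0.937), Avil (0.93) and Hpcal4 (0.928). Pfkl was followed by Trim31 (0.928), Sema4a (0.925) and Fxyd4 (0.92), Ldha by Dipk1b (0.927), Jph3 (0.923) and Ppp2r2c (0.922), and Ldhb by Nqo1 (0.938), Atp6v1f (0.936) and Rasgrf2 (0.931). Slc2a1 had the weakest partners, Tprn (0.86), Olig2 (0.852) and AU015791 (0.84). Among the members themselves the highest correlations were between Hk1 and Pfkp (0.90), Aldoa and Ldhb (0.87) and Pfkp and Pgk1 (0.84), all over 13 arrays, and the lowest was between Hk1 and Hk2 (-0.24).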

How the data were processed

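Values are log2 expression per probe set, made by the authors with RMA (background correction, quantile normalization and summary) in Partek, per the submitters' processing notes, which give no versions. The deposited log2 values run from 2.04 to 14.46 and array medians from 5.8 to 5.9. Whether the arrays were summarised together is not stated in the sources used here, and signal over background was not analysed. Of 45101 probe sets 34945 carried exactly 1 gene symbol in the platform annotation, of which 34741 matched the RefSeq table of assembly GRCm38.p6 with 0 symbols changed. For each of 18193 genes the brightest probe set on average was kept. Near-identical sequences, such as processed pseudogenes of Aldoa, Pgk1 and Ldha, may share probes, and this was not analysed here.

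In R 4.3.3, limma 3.58.1 (lmFit, eBayes) estimated the 4 group means from the 13 arrays together, with 9 residual degrees of freedom and 2.28 from the prior. The 6 contrasts had two-sided tests with Benjamini-Hochberg adjustment across genes (or over all probe sets where these were tested on their own) and a call under 0.05. The scripts were tested on simulated data. Balances of gene copies were compared by exact permutation tests over arrays, adjusted over 6 tests, without averaging arrays of a shared title number. The members, lists, tests and naming rule were chosen with earlier results of these data known. The rule allowed naming every member, every measured glycolysis enzyme or carrier, genes among the 3 largest called changes per list and comparison, of which some are given, and the 3 closest genes by correlation. Alternatives were another normalization, centring, probe set rule or filter, variance trend, array weights, compared groups alone, arrays sharing a title number averaged or as a block, and arrays left out, including the 5 with a liver marker mean above 8. Python 3.11.15 with matplotlib 3.10.9 made the figures.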

Additional observations from a re-analysis of the deposited data

Results flagged for a closer look

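In MYCN tumours 1 array lay apart in 2 of 28 member probe sets and balances tested, where chance marks about 1 in 20. The dim Pfkl probe set 1453541_at read 5.92 in MYCN 1 and 5.35 to 5.4 in the other 3, a gap of 0.918 of the group's range, past the limit of Dixon's test for 4 samples. The brightest Aldoa probe set, 1416921_x_at, read 11.57 in MYCN 2 and 11.82 to 11.86 in the others, a gap of 0.853 of the range, and MYCN 2 is 1 of the 5 arrays with liver markers. Tumour types differed in 2 members by a test of the difference itself (limma): Pgk1 in mutALK tumours exceeded MYCN tumours by 0.63 (adjusted p = 0.0164), and Pfkp in double transgenic tumours exceeded MYCN tumours by 1.48 (adjusted p = 0.0288). Both were above in 3 of 3 arrays of the first group, and neither was called with arrays of a shared title number averaged (0.59 and 1.44).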

How the results depend on the processing

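The p-values rest on 3 or 4 arrays a group, and adrenal 2 sets much of the adrenal spread. Over the alternatives no member difference called as reported changed its sign, and none called in an alternative had the opposite sign to the reported one. Some differences not called as reported did change sign, such as Hk1 in MYCN tumours against adrenal (-0.22 to 0.87). Counts of called members are listed first for double transgenic, mutALK and MYCN against adrenal (4, 3 and 3 as reported). Next come mutALK against MYCN, double transgenic against MYCN and double transgenic against mutALK (1, 1 and 0). No counts are given without the 5 liver marker arrays, because mutALK 2 was then the only mutALK array. The counts were 6, 6, 5, 4, 3 and 0 with array weights and 1, 1, 2, 4, 4 and 0 with the compared groups alone. With arrays of a shared title number averaged they were 3, 1, 2, 0, 0 and 0. Without adrenal 2 and double transgenic 1 they were 6, 5, 4, 4, 4 and 1. In mutALK against MYCN they were 3 after quantile normalization again and with the mean of all probe sets, and 4 without the dimmest 40% of genes. With 1 array left out they were 1 to 5, 1 to 5, 3 to 4, 0 to 4, 0 to 4 and 0 to 1. The balance of Pfkp and Pfkl between tumours and adrenal was 1.09 with the mean of all probe sets (called) and 1.04 to 1.33 with 1 array left out, and the F of Hk2 minus Hk1 among tumour types was 6.43 to 22.6. In the 8 arrays without liver markers, Ldha minus Ldhb was 1.87 and Hk2 minus Hk1 -2.59 between tumours and adrenal (adjusted p = 0.0536 for both), and the F among tumour types was 25.4 for Hk2 minus Hk1 and 830 for Pfkp minus Pfkl (adjusted p = 0.05 for both); so few splits cannot give a lower p. Eno2, double transgenic minus adrenal, was -0.04 and not called as reported, and -1.09 to 1.44 with 1 array left out. It was 1.44 and called without adrenal 2. The difference was 1.47 without adrenal 2 and double transgenic 1 and 1.47 without the liver marker arrays. The cause was not tested. No paired analysis was possible because the labels number the replicates of the adrenal group alone.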

Other observations

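Of 17 genes known to respond to hypoxia 5 were higher and 5 lower in double transgenic tumours, 5 and 3 in mutALK tumours and 4 and 7 in MYCN tumours against adrenal gland, where 48.6%, 42.2% and 50.2% of all genes were called. Without adrenal 2 they were 5 and 6, 5 and 3, and 3 and 6. Egln3, a prolyl hydroxylase that marks hypoxia-inducible factors for destruction, averaged 11.08 ± 0.93 in double transgenic, 9.75 ± 0.51 in mutALK and 5.72 ± 0.98 in MYCN tumours and 7.20 ± 0.65 in adrenal gland (SD). Double transgenic tumours exceeded MYCN tumours in Egln3 by 5.35 ± 0.56 (40.8-fold, limma adjusted p = 0.00049) and mutALK tumours exceeded them by 4.03 ± 0.56 (0.000322). Car12, a carbonic anhydrase of the cell surface, ran otherwise, at 7.87 ± 0.81 in double transgenic, 5.12 ± 0.41 in mutALK and 8.95 ± 0.43 in MYCN tumours and 4.69 ± 0.12 in adrenal gland. Bnip3, a mitochondrial protein of mitophagy, differed between mutALK and MYCN tumours by 2.10 ± 0.28 (0.000256) and between MYCN tumours and adrenal gland by -3.16 ± 0.28 (2.78e-06).

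Of 11 regulators of glycolytic genes 4 were higher and 5 lower in double transgenic tumours, 3 and 5 in mutALK tumours and 4 and 6 in MYCN tumours, beside the same shares of all genes. Without adrenal 2 they were 4 and 5, 2 and 5, and 4 and 5. Mlxipl, the glucose-sensing factor ChREBP, averaged 5.43 ± 0.89 in double transgenic, 5.18 ± 0.83 in mutALK and 5.36 ± 0.53 in MYCN tumours and 8.76 ± 1.19 in adrenal gland, and was called lower in each. Myc averaged 6.14 ± 0.28 in double transgenic, 7.88 ± 0.76 in mutALK and 6.43 ± 0.29 in MYCN tumours and 9.27 ± 0.91 in adrenal gland, and was called lower in each (limma, highest adjusted p = 0.025). The mutALK call in Myc (-1.38) was lost without mutALK 2 (-1.35), mutALK 3 (-1.02), adrenal 1 (-1.08) or adrenal 3 (-1.16). Mycl averaged 8.05 ± 0.47 in double transgenic, 6.26 ± 0.42 in mutALK and 7.89 ± 0.44 in MYCN tumours and 5.0 ± 0.27 in adrenal gland, and was called higher in each (highest adjusted p = 0.00588). Double transgenic tumours differed from mutALK tumours by -1.75 ± 0.44 in Myc (0.0247) and 1.78 ± 0.31 in Mycl (0.00524), the Myc call being lost without mutALK 1 (-1.36), mutALK 2 (-1.78) or double transgenic 2 (-1.58).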
